A study of Mus musculus with 6 samples.

Results

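The mouse mitochondrial genome carries 37 genes, of which 13 are for proteins, 2 for ribosomal RNAs and 22 for transfer RNAs. They were taken here as the rows of the deposited count table whose gene symbol starts with mt-, and all 37 were found among 48709 mouse gene rows. Total RNA of the cochlea was sequenced from 3 wild-type mice (Hgf+/+) and 3 littermates homozygous for an engineered Hgf allele (Hgfdel10Neo/del10Neo, here knock-in). That allele lacks 10 bp of intron 5 of Hgf and carries Neo. The mice were between 5 and 27 weeks old, and each library is 1 mouse, whose own age, sex and litter were not stated. RNA was depleted of ribosomal RNA before random-primed cDNA synthesis.

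Mitochondrial DNA is a small circle that is read from both strands into long precursor RNAs. Transfer RNAs sit between most of the other genes, and cutting them out of the precursor frees the mRNAs and rRNAs. All of the proteins are subunits of the respiratory chain or of ATP synthase, and the rRNAs belong to the ribosome that makes these proteins inside the organelle. Variants of the small-subunit rRNA gene and of some mitochondrial tRNA genes are known causes of hearing loss in humans, and the stria vascularis of the cochlea is rich in mitochondria.

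Libraries held between 24005234 and 42312291 gene counts. CPM, the usual depth-scaled count, was computed on TMM-scaled library totals. Hgf, the altered gene, was at 15.4, 16.2 and 15.2 CPM in wild-type replicates 1, 2 and 3, and at 9.23, 10.4 and 10.5 CPM in knock-in replicates 1, 2 and 3. Neo had 71, 199 and 5 counts in knock-in mice against 5, 8 and 10 in wild-type mice. The library labelled knock-in replicate 3 thus held no more Neo than wild-type ones, although its Hgf lay below all of them, and results are also given without it. Markers of the cochlea were present in every library, with Coch of fibrocytes between 2372 and 3060 CPM, Myo7a of hair cells between 38.1 and 46.7 CPM and Kcnq1 of strial marginal cells between 14.3 and 21.3 CPM. In RNA of a whole organ, fewer cells of a type and less RNA per cell cannot be told apart.

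The mRNA genes fell into 2 sets, one with many counts and one with nearly none, and the sets differed in how much sequence they share with the nucleus. The mouse nuclear genome holds copies of mitochondrial DNA, and 7 such copies are annotated side by side on the reverse strand of chromosome 1, from 24611535 to 24616197 of GRCm38. Every window of 93 bases, the read length, was taken from each mitochondrial rRNA and mRNA gene and looked for in all annotated nuclear transcripts. Of the 13 mRNA genes, 5 shared between 97.7% and 99.9% of their windows with a nuclear copy. They were mt-Co2, mt-Co3, mt-Atp6, mt-Nd3 and mt-Nd4l, and the copy of mt-Co2, Gm28661, matched it over all 681 aligned bases. The first read length of mt-Co2 (chrM:7013-7105, forward strand) and of Gm28661 (chr1:24615473-24615565, reverse strand) is shown to make that identity visible, with the start of mt-Nd3 (chrM:9459-9551, forward strand) and its copy Gm28438 (chr1:24613027-24613119, reverse strand). Sequences are from GENCODE release M21 on GRCm38, and capitals mark the only base that differs, T3C, counted from 1 at the first base of the gene.

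mt-Co2: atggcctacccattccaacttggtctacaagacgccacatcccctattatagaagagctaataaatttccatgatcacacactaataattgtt
Gm28661: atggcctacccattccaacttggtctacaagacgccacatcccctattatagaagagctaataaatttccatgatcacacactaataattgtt
mt-Nd3: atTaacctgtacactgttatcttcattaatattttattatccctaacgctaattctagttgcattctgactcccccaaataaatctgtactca
Gm28438: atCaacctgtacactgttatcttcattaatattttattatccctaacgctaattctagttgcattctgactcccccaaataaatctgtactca

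These 5 genes had at most 107 counts each over all 6 libraries. The total was 107 for mt-Co3, 62 for mt-Co2, 36 for mt-Nd3, 26 for mt-Atp6 and 0 for mt-Nd4l. Of the other 8 mRNA genes, 7 had at least 10235 counts each. The exception was mt-Atp8, which overlaps mt-Atp6. It had 1 count in all, and none of its windows lay in an annotated nuclear transcript. Its place between mt-Co2 and mt-Atp6 has its counterpart, in gene order, in the unannotated stretch between Gm28661 and Gm10925 on chromosome 1, whose sequence was not analysed here. The copies themselves also had few counts, 573 over the 7 copies on chromosome 1 and 6 libraries, with 202 for Gm28437, the copy of mt-Co3, and 97 for Gm28661. How reads with several matches were treated was not stated, and the levels of these 6 mRNA genes are not read as expression below.

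**Figure D1:**
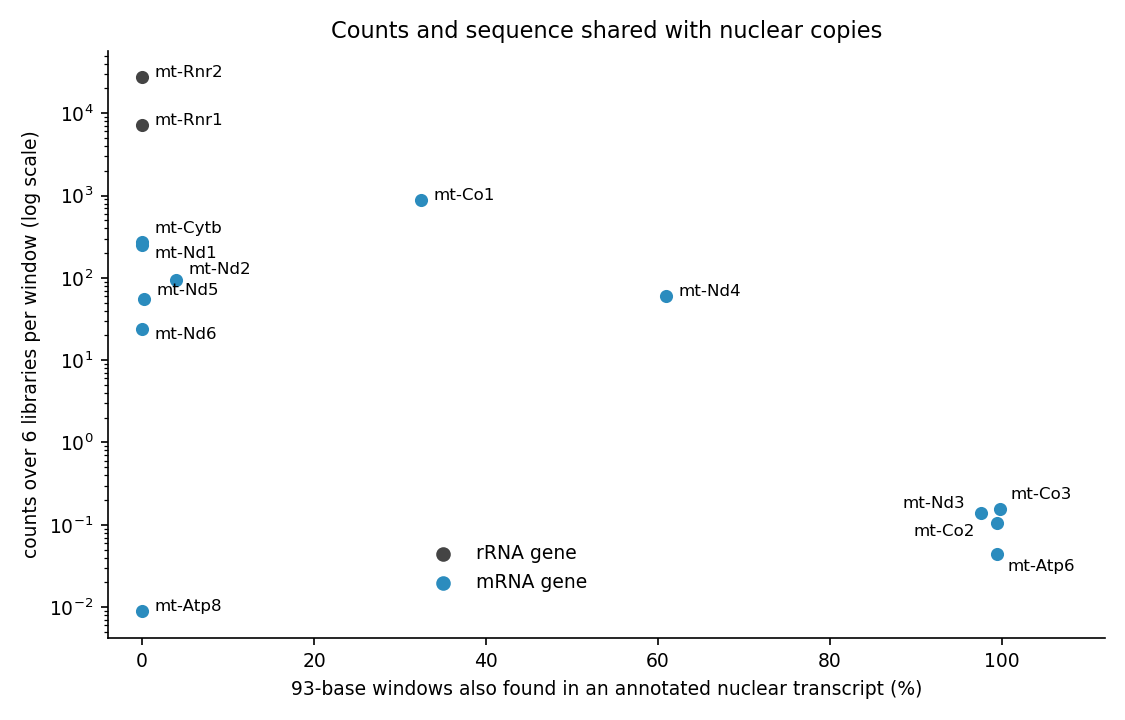
Counts per 93-base window, summed over 6 libraries (vertical, log scale), against the share of a gene's windows that an annotated nuclear transcript also holds (horizontal, percent), for 2 rRNA and 12 mRNA genes; mt-Nd4l, with 0 counts, cannot be drawn on the log scale. The genes with at least 97.7% of windows shared, and mt-Atp8, lie below 1 count per window, and every other gene lies above 20.

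Another pair of mRNA genes was shared in part. mt-Co1, the largest subunit of cytochrome c oxidase, shared 32.5% of its windows, and mt-Nd4, a membrane subunit of complex I, shared 61.0%. For mt-Nd2 the share was 3.91% and for mt-Nd5 0.173%, while mt-Nd1, mt-Nd6, mt-Cytb and both rRNA genes shared none. Levels between genes were compared on 2 scales, CPM per kilobase of gene length and CPM per kilobase of windows found in no annotated nuclear transcript. The second takes it that reads in shared windows were not counted, which was not tested. On the second scale mt-Co1 was the highest mRNA, at 7139 ± 697 in wild-type and 7287 ± 850 in knock-in (SD, n = 3 per group). mt-Nd1, also of complex I, was at 1636 ± 281 in wild-type, within the spread of mt-Cytb, the cytochrome b subunit of complex III, at 1465 ± 296. mt-Nd2 was at 615 ± 122 and mt-Nd5 at 311 ± 22.1 (SD, n = 3). The lowest of the 7 well-counted mRNA genes was mt-Nd6, at 140 ± 28.2, the only mRNA gene on the reverse strand. Per kilobase of gene length, wild-type levels were 4533 ± 442 for mt-Co1, 1479 ± 254 for mt-Nd1, 1347 ± 272 for mt-Cytb, 538 ± 107 for mt-Nd2, 295 ± 20.9 for mt-Nd5 and 115 ± 23.2 for mt-Nd6 (SD, n = 3), in the same order. The place of mt-Nd4 depended on the scale. At 896 ± 120 per kilobase of unshared windows it lay above mt-Nd2 (SD, n = 3). At 326 ± 43.6 per kilobase of gene length it lay below mt-Nd2 and somewhat above mt-Nd5, with overlapping spreads (SD, n = 3).

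The tRNA genes are 59 to 75 bases long, so each is shorter than a read, and 18 of the 22 lie within 5 bases of another annotated gene on both sides. Of the 22, 15 had no count in any library, which allows at most 0.0709 to 0.125 CPM per library at a floor of 3 counts. Another 3 had 1 to 9 counts in all, and 4 had at least 10. Those 4 were mt-Tp with 2556 counts over 6 libraries, mt-Tc with 120, mt-Tm with 29 and mt-Tq with 11. No annotated gene follows mt-Tp (tRNA for proline), which borders the control region, and 32 bases separate mt-Tc (cysteine) from mt-Tn. The genes of the 3 most counted tRNAs are printed because the tRNA results rest on them. They are mt-Tp at chrM:15356-15422 on the reverse strand, mt-Tc at chrM:5192-5257 on the reverse strand and mt-Tm (methionine) at chrM:3845-3913 on the forward strand. Capitals mark the anticodon.

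mt-Tp: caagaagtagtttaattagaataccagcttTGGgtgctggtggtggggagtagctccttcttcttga
mt-Tc: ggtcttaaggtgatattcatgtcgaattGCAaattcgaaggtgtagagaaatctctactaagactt
mt-Tm: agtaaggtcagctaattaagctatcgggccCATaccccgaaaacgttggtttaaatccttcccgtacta

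The first comparison asked how much of each library was mitochondrial. Mitochondrial genes took 22.1%, 26.03% and 27.2% of gene counts in wild-type replicates 1, 2 and 3, and 30.1%, 25.3% and 28.5% in knock-in replicates 1, 2 and 3. The means were 25.1% ± 2.69 and 27.96% ± 2.47 (SD, n = 3 per group), and the groups overlapped. mt-Rnr2, the rRNA of the large mitochondrial ribosomal subunit, made up 82.6% ± 1.13 of mitochondrial counts in wild-type and 83.4% ± 0.511 in knock-in (SD, n = 3 per group). The share thus mostly follows a single rRNA, in libraries that had been depleted of rRNA.

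The mRNA genes together took 1.03%, 1.30% and 1.19% of gene counts in the wild-type libraries and 1.24%, 0.919% and 1.03% in the knock-in libraries. For mt-Co1 alone the shares were 0.641%, 0.759% and 0.732% in wild-type and 0.714%, 0.641% and 0.752% in knock-in. The other 12 mRNA genes took 0.392%, 0.542% and 0.455% in wild-type, and 0.530%, 0.279% and 0.280% in knock-in replicates 1, 2 and 3. The last pair lay below every wild-type library, while knock-in replicate 1 lay within the wild-type range.

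**Figure D2:**
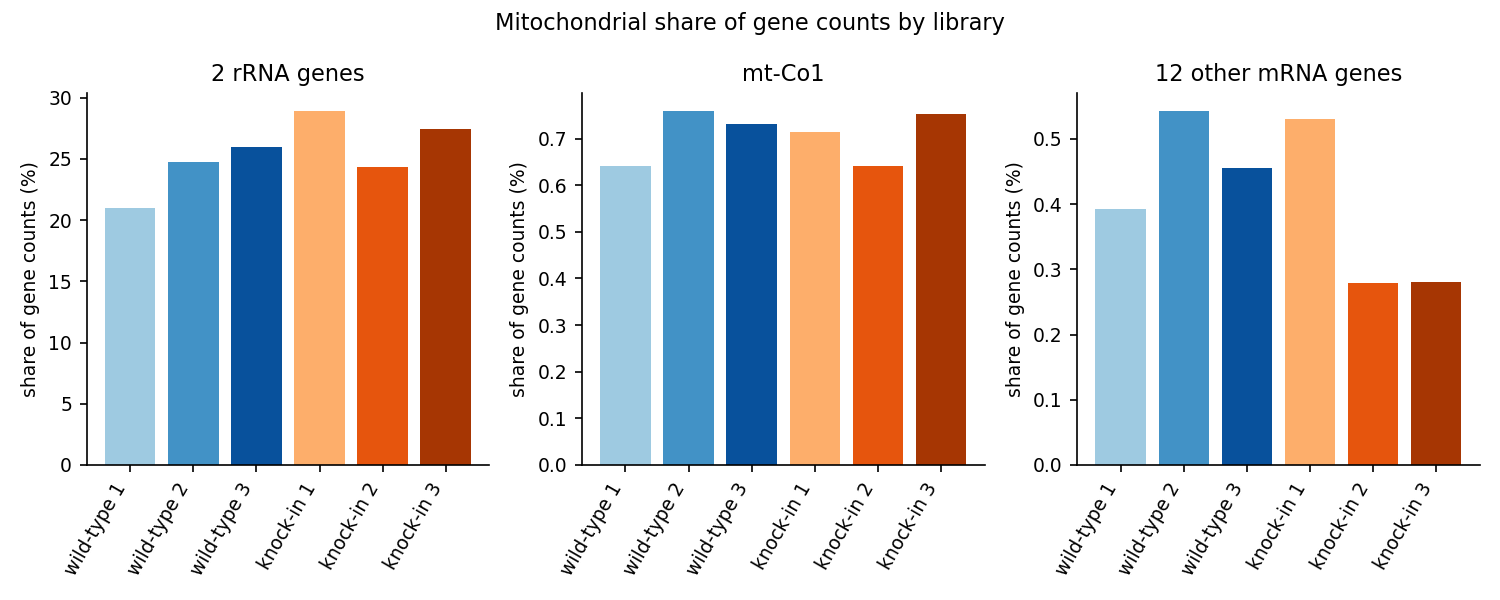
Share of a library's gene counts (percent, bars from 0) taken by the 2 rRNA genes, by mt-Co1 and by the other 12 mRNA genes, in each of 6 libraries. The first 2 panels show overlapping groups; in the last panel knock-in replicates 2 and 3, at 0.279% and 0.280%, lie below the 4 other libraries.

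The main comparison asked which mitochondrial genes the allele's carriers and their littermates expressed at different levels. Of the 37, 12 passed the filter on low counts, and edgeR's quasi-likelihood test, adjusted by Benjamini-Hochberg over 20733 genes, called 0 of them and 0.0338% of all genes. At an unadjusted p under 0.05, 2 of the 12 were higher in knock-in (2.53% of all genes) and 0 were lower (1.96% of all genes). The groups did not overlap for 1 of the 12, mt-Tc (8.72% of all genes). DESeq2, which called 0.0926% of genes, and limma-voom also called 0. The authors' deposited table lists 16 of the genes, gives an adjusted p for 11 of them and calls 0 of these, against 0.182% of the features with an adjusted p. Each gene is described below by its values in the 6 libraries, in the order wild-type replicates 1, 2 and 3, then knock-in replicates 1, 2 and 3.

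mt-Rnr1 encodes the rRNA of the small mitochondrial ribosomal subunit. It was at 28414, 33457 and 32251 CPM in wild-type mice and at 40275, 31949 and 36551 CPM in knock-in replicates 1, 2 and 3. Its log2 fold change was 0.21 (SE 0.18, edgeR adjusted p = 0.966), and knock-in replicate 2 fell within the wild-type range. mt-Rnr2 was at 175420, 207899 and 230194 CPM in wild-type and 259822, 204344 and 248383 CPM in knock-in, with a log2 fold change of 0.22 (SE 0.231, edgeR adjusted p = 0.972). Without knock-in replicate 3 the log2 fold changes were 0.20 for mt-Rnr1 and 0.18 for mt-Rnr2. Both rRNAs were lowest in wild-type replicate 1 and highest in knock-in replicate 1. The ratio of mt-Rnr2 to mt-Rnr1 counts was 6.51 ± 0.545 in wild-type and 6.55 ± 0.217 in knock-in (SD, n = 3 per group), a difference smaller than the spread.

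mt-Co1, a subunit of complex IV, was at 6214, 7407 and 7389 CPM in wild-type mice and at 7412, 6214 and 7819 CPM in knock-in. Its log2 fold change was 0.03 (SE 0.159, edgeR adjusted p = 0.994), and the sign turned with library totals alone as the scaling (-0.02). The groups covered nearly the same range. mt-Co3 passed the filter with 0.564 ± 0.225 CPM in wild-type and 0.593 ± 0.124 CPM in knock-in (SD, n = 3 per group), but nearly all of its sequence is shared with Gm28437.

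The complex I subunit genes and mt-Cytb had another pattern. mt-Nd2, a core membrane subunit of complex I, was at 463, 681 and 532 CPM in wild-type mice and at 684, 229 and 245 CPM in knock-in replicates 1, 2 and 3. Knock-in replicate 1 was the highest of all 6 libraries, and knock-in replicates 2 and 3 were the lowest. The log2 fold change was -0.53 (SE 0.374, edgeR adjusted p = 0.966). mt-Nd1 was at 1142, 1605 and 1498 CPM in wild-type mice and at 1595, 849 and 954 CPM in knock-in, and mt-Nd4 at 409, 519 and 422 CPM against 586, 261 and 290.2 CPM. In both, the same pair of knock-in libraries lay below all others.

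mt-Nd5, late in the series of forward-strand genes, was at 521, 582 and 512 CPM in wild-type mice and at 752, 370 and 332 CPM in knock-in. mt-Nd6, encoded on the other strand and overlapping the end of mt-Nd5, was at 53.2, 73.8 and 52.7 CPM in wild-type mice and at 87.4, 33.6 and 26.7 CPM in knock-in. Here too knock-in replicate 1 was highest and replicates 2 and 3 lowest, on either strand, but whether counting kept the strands apart was not stated. mt-Cytb was at 1214, 1833 and 1576 CPM in wild-type mice and at 1799, 959 and 1065 CPM in knock-in. For these 5 genes after mt-Nd2, the log2 fold changes were -0.32 (mt-Nd1), -0.25 (mt-Nd4), -0.15 (mt-Nd5), -0.28 (mt-Nd6) and -0.27 (mt-Cytb), with SE from 0.237 to 0.374 and edgeR adjusted p of 0.966 to 0.982. Each difference was smaller than the spread between the knock-in mice.

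So 6 of the 7 well-counted mRNA genes, all but mt-Co1, had their 2 lowest values in knock-in replicates 2 and 3. Among all genes tested, 2289 of 20733 (11.04%) had these as their 2 lowest libraries. Against the wild-type mean, the 6 genes lay between -1.27 and -0.54 log2 units in knock-in replicate 2, between -1.17 and -0.51 in replicate 3, and between 0.19 and 0.56 in replicate 1. Wild-type libraries ranged from -0.32 to 0.32. The 6 genes and this order were picked out after their values were seen. They come from the same libraries, and all but mt-Nd6 from the same strand, so they are not independent of each other.

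**Figure D3:**
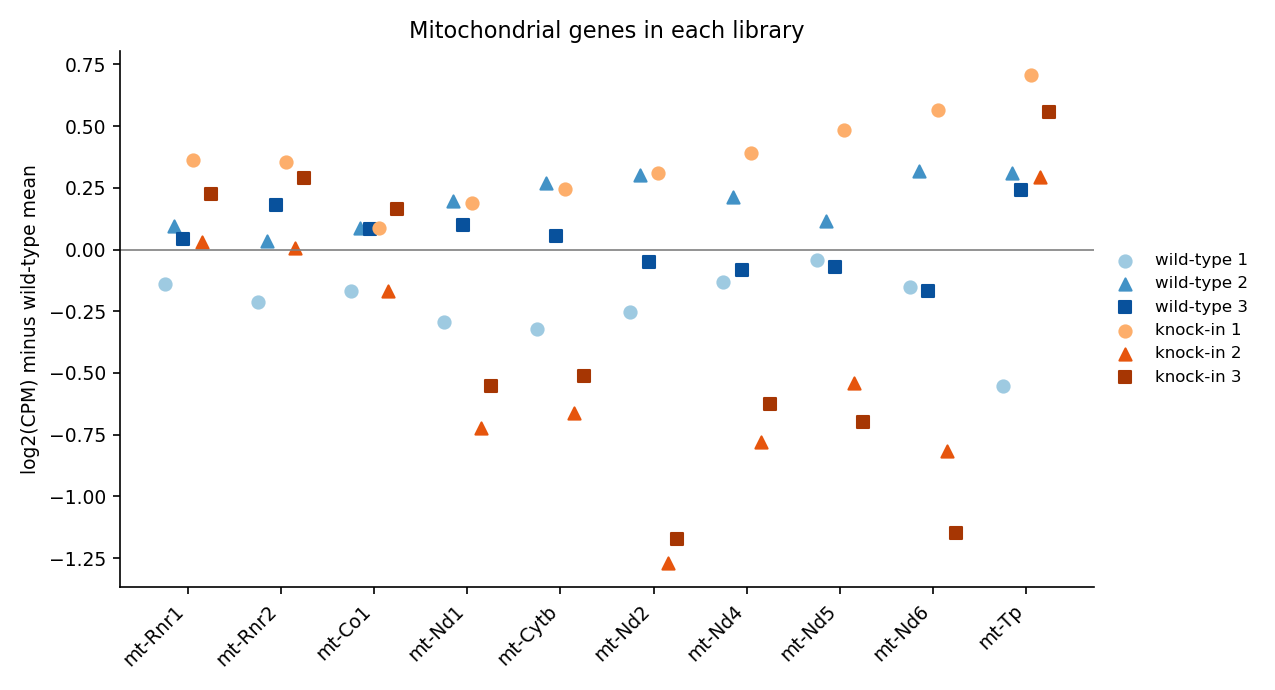
Log2 CPM minus the wild-type mean (vertical) for 10 mitochondrial genes (horizontal), 1 point per library; blue marks are wild-type and orange marks knock-in. The rRNA genes and mt-Co1 stay within 0.4 of 0, while for the 6 genes from mt-Nd1 to mt-Nd6 knock-in replicates 2 and 3 lie at -0.51 or lower and knock-in replicate 1 lies at 0.19 or higher.

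How these genes compared depended on which knock-in library was left out. Without knock-in replicate 1, mt-Nd2 was at a log2 fold change of -1.23 (SE 0.18, edgeR adjusted p = 0.0638). mt-Nd6 was at -0.99 (SE 0.182, edgeR adjusted p = 0.17) and mt-Nd4 at -0.70 (SE 0.148, edgeR adjusted p = 0.232). mt-Nd5 was then at -0.62, mt-Nd1 at -0.65 and mt-Cytb at -0.60. All 6 genes had an unadjusted edgeR p under 0.05 in that fit (8.16e-05 to 0.0121), where 5.05% of all genes were lower at that level. They had been picked because knock-in replicates 2 and 3 were their lowest libraries, and that fit keeps only this pair as knock-in. Its p-values for the 6 genes thus follow from the choice and are no support for a difference. Of the 13 mitochondrial genes tested in that fit, 1, mt-Tc, was higher (3.98% of all genes). None passed after adjustment over all genes, where that fit called 0.0996%. Without knock-in replicate 3, the library low in Neo, mt-Nd2 was at -0.30, mt-Nd1 at -0.22, mt-Cytb at -0.16 and mt-Nd4 at -0.09, and the signs of mt-Nd5 (0.06) and mt-Nd6 (0.01) turned. Without knock-in replicate 2, mt-Nd2 was at -0.27, mt-Nd4 at -0.04 and mt-Nd5 at 0.01.

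**Figure D4:**
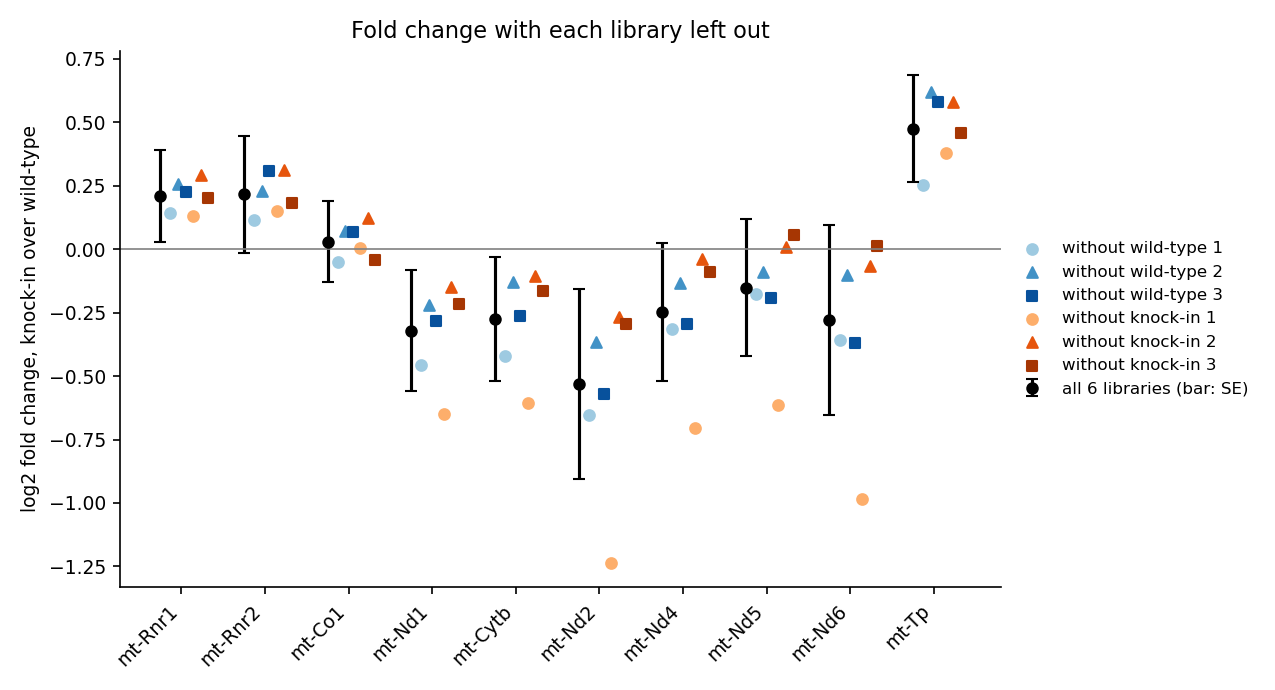
Log2 fold change of knock-in over wild-type (vertical) for 10 mitochondrial genes, with all 6 libraries (black, bar for the SE) and with each library left out (coloured). For the 6 genes from mt-Nd1 to mt-Nd6, the fit without knock-in replicate 1 lies between -1.23 and -0.60, below every other fit of the same gene.

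Some other values also differed between these libraries. In a list of abundant noncoding RNAs, 10 of 11 tested had positive log2 fold changes, with a median of 0.32, and 4 were higher at an unadjusted p under 0.05 in edgeR (2.53% of all genes). These 4 were Rmrp, Rny1, Rny3 and Rnu12. The summed level of the list was 21064 to 25551 CPM in wild-type and 24960 to 25576 CPM in knock-in. The RNAs of the list named here were chosen after their values were seen. Rmrp, the RNA of RNase MRP, was at 76.0, 182 and 144 CPM in wild-type mice and at 154, 384 and 388 CPM in knock-in. Rny1, a Y RNA, was at 34.9, 64.2 and 67.9 CPM in wild-type mice and at 51.1, 123 and 231 CPM in knock-in, and Rnu12, a spliceosomal RNA, at 25.2, 44.97 and 54.0 CPM against 54.5, 96.6 and 108 CPM. The row for bacterial beta-lactamase had 12.3, 14.9 and 13.02 CPM in wild-type and 9.61, 25.2 and 35.7 CPM in knock-in on unscaled totals. In each of these, knock-in replicates 2 and 3 lay above every other library. Gm26917 of the same list did not have that order, at 6297, 6267 and 4459 CPM in wild-type mice and at 8362, 7227 and 5707 CPM in knock-in. Rpph1, Malat1, Neat1, Rn7s1, Rn7s2 and Terc of that list lacked the order too. The share of all genes with that order was not counted. Skeletal muscle, a tissue rich in mitochondria, was represented by 12 marker genes, all detected, whose summed level was 4407 to 6992 CPM in wild-type and 5731, 3691 and 3419 CPM in knock-in. All 12 had negative log2 fold changes and 1 was lower at an unadjusted p under 0.05 in edgeR (1.96% of all genes). The 7 spiral ganglion neuron markers summed to 441 to 660.0 CPM in wild-type and to 526, 331 and 499 CPM in knock-in, so knock-in replicate 2 alone lay below the wild-type range. The 10 adipocyte markers summed to 98.5 to 190.4 CPM in wild-type and to 385, 182 and 978 CPM in knock-in, so knock-in replicates 1 and 3 lay above the wild-type range and replicate 2 within it. Of 9 tested, 7 were higher at an unadjusted p under 0.05 in edgeR (2.53% of all genes). Of the markers in these lists, Elovl3 alone was at 0 in a library. The part of any of these in the mitochondrial values was not tested.

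Ratios between mitochondrial genes need no scaling of library totals. The ratio of mt-Co1 to mt-Nd2 counts was 13.4, 10.9 and 13.9 in wild-type and 10.8, 27.1 and 31.9 in knock-in replicates 1, 2 and 3. For mt-Co1 to mt-Cytb it was 5.12, 4.04 and 4.69 in wild-type and 4.12, 6.48 and 7.34 in knock-in. mt-Nd1 and mt-Cytb kept close to each other, at a ratio of 0.922 ± 0.0405 in wild-type and 0.889 ± 0.00578 in knock-in (SD, n = 3 per group). The ratio of all forward-strand to all reverse-strand genes was 3489, 2886 and 4122 in wild-type and 2928, 5054 and 6662 in knock-in, where the reverse strand carries 9 genes, mt-Nd6 and tRNA genes. The groups overlapped in each of these.

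The ratio of rRNA to mRNA counts separated the groups. It was 20.3, 19.0 and 21.9 in wild-type and 23.2, 26.5 and 26.5 in knock-in, a 1.25-fold difference of the means of the log2 ratios. Every knock-in library lay above every wild-type library, and the difference in log2 units was between 0.27 and 0.38 with any 1 library left out. This ratio was chosen after its values were seen and no test was made. Its numerator is also what remained after depletion of rRNA. The summed level of 6 markers of strial intermediate cells also separated the groups, at 252 to 278 CPM in wild-type and 115 to 138 CPM in knock-in. Singly, the groups did not overlap for 5 of the 6 (8.72% of all genes), and Kcnj13 overlapped. Of the 6, edgeR called 2 lower, Dct (adjusted p = 0.000179) and Tyr (adjusted p = 0.0205), against 0.0338% of all genes called. The part of these markers in the ratio was not tested.

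Among the tRNA genes, mt-Tc had 8, 5 and 22 counts in wild-type and 28, 32 and 25 counts in knock-in. It was at 0.338 ± 0.179 CPM in wild-type and 1.01 ± 0.14 CPM in knock-in (SD, n = 3 per group), and every knock-in library lay above every wild-type library, as for 4.71% of all genes. The log2 fold change was 1.49 (SE 0.375; edgeR unadjusted p = 0.00286, adjusted p = 0.966). It was 1.18 to 2.04 with single libraries left out, 1.18 without wild-type replicate 2 and 2.04 without wild-type replicate 3. With no filter on low counts the edgeR adjusted p was 0.132, and in the authors' deposited table its log2 fold change was 1.52 with an adjusted p of 0.467.

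mt-Tp was at 7.67, 13.9 and 13.3 CPM in wild-type mice and at 18.3, 13.8 and 16.5 CPM in knock-in, with a log2 fold change of 0.47 (SE 0.211, edgeR adjusted p = 0.966). The groups overlapped, since wild-type replicate 2 exceeded knock-in replicate 2. Without wild-type replicate 1, the library with the lowest value, the log2 fold change was 0.25. mt-Tm, which did not pass the filter, had 0, 5 and 5 counts in wild-type and 5, 6 and 8 counts in knock-in. mt-Tq had 1, 2 and 2 counts in wild-type and 5, 0 and 1 in knock-in. mt-Tv, between the rRNA genes, had 7 counts in all. Counts of genes annotated on the reverse strand did not move together, though whether counting kept the strands apart was not stated. In knock-in replicate 3 mt-Nd6 was at its lowest, while mt-Tp lay above every wild-type library.

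Most proteins of mitochondria come from nuclear genes. Across 14 lists of such genes, edgeR called 0 of 284 tested, at a background of 0.0338% of all genes. At an unadjusted p under 0.05, 7 were higher (2.53% of all genes) and 2 lower (1.96% of all genes). Their median log2 fold change was 0.06, against 0.00 over all genes tested. Without knock-in replicate 3, 134 of the 284 had positive and 150 negative log2 fold changes. Of all 21131 genes tested in that fit, 10364 were positive and 10767 negative. DESeq2 and limma-voom called 0 of the 284 as well.

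The summed levels of nuclear subunits that assemble with the mitochondrial ones were at their highest in knock-in replicate 3, though not every single subunit was. The summed level of the complex I subunits was 1729, 1806 and 1799 CPM in wild-type mice and 1817, 1711 and 2279 CPM in knock-in. In knock-in replicate 3 the sums of complexes III, IV and V were 904, 1531 and 3059 CPM, against at most 716, 1202 and 2611 CPM in wild-type. Of 36 tested subunits of complex I, 29 had positive and 7 negative log2 fold changes, and a median of 0.14. Without knock-in replicate 3, 16 were positive and 20 negative, with a median of -0.0124. Ndufa6 was at 60.4 ± 2.00 CPM in wild-type and 73.0 ± 8.89 CPM in knock-in, and Ndufb5 at 49.7 ± 4.34 and 60.4 ± 6.77 CPM (SD, n = 3 per group), with every knock-in library higher. The groups did not overlap for 5 of the 36 subunits, in both directions (8.72% of all genes). Ndufa5, another subunit of complex I, was at 28.2, 31.9 and 32.7 CPM in wild-type mice and at 29.2, 16.2 and 21.7 CPM in knock-in, so knock-in replicates 2 and 3 were its lowest libraries too. Its log2 fold change was -0.47 (SE 0.188, edgeR adjusted p = 0.966), and -0.71 without knock-in replicate 1.

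The other complexes had medians of 0.17 for 4 subunits of complex II, 0.11 for 9 nuclear subunits of complex III, 0.16 for 11 of complex IV and 0.05 for 17 of complex V. Without knock-in replicate 3 these were 0.0133, 0.0279, 0.00835 and -0.0541. Cox4i1, a nuclear subunit of complex IV, was at 186 ± 3.96 CPM in wild-type and 208 ± 34.4 CPM in knock-in, and Uqcr10 of complex III at 57.5 ± 4.57 and 71.6 ± 16.2 CPM (SD, n = 3 per group). Atp5g3, which encodes a ring subunit of ATP synthase, went the other way, at 77.7 ± 2.21 and 67.0 ± 9.65 CPM (SD, n = 3 per group). The spread between knock-in mice was several times that between wild-type mice for Cox4i1 and Atp5g3. Among subunits restricted to certain tissues, Cox6a2 of muscle had a log2 fold change of -0.37, while Cox8b and Cox7a1, of muscle and brown fat, had 0.69 and 0.41. None of these passed the edgeR test (adjusted p = 0.966 for each).

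For Tfam and Polrmt, main factors of mitochondrial transcription, the groups overlapped. Tfam, which packages mitochondrial DNA and opens its promoters, was at 29.4 ± 1.89 CPM in wild-type and 27.3 ± 2.74 CPM in knock-in, and Polrmt, the mitochondrial RNA polymerase, at 15.1 ± 1.85 and 16.3 ± 1.07 CPM (SD, n = 3 per group). Lrpprc, which stabilises mitochondrial mRNAs, was at 72.3 ± 6.33 and 72.2 ± 4.29 CPM (SD, n = 3 per group). In the list of RNA processing, modification and decay, 22 of 33 tested genes had positive log2 fold changes. Rexo2, an exonuclease of short RNAs, was at -0.19, and Cdk5rap1, a tRNA modification enzyme, at 0.33, each without overlap between groups. With these included, the groups did not overlap for 3 of the 33 genes (8.72% of all genes). Mterf2 of the transcription list was at 0.30.

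Of 77 tested mitochondrial ribosomal protein genes, 53 had positive log2 fold changes and the median was 0.05. Without knock-in replicate 3, 34 were positive and 43 negative. Mrps6 was at 20.2 ± 0.623 CPM in wild-type and 24.8 ± 1.39 CPM in knock-in, and Mrpl11 at 17.0 ± 0.73 and 20.3 ± 1.75 CPM (SD, n = 3 per group), in both with every knock-in library higher. The groups did not overlap for 4 of the 77 genes (8.72% of all genes). Of 19 tRNA synthetase genes, 12 were positive, with Wars2 (tryptophan) at 0.35 and Kars (lysine, shared with the cytosol) at -0.21. Lars2, the leucine enzyme, was at 471, 82.9 and 79.1 CPM in wild-type mice and at 28.5, 82.7 and 2870 CPM in knock-in. One library of each group stood far above the rest, and Lars2 was picked out after its values were seen.

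Regulators and mass markers showed no common direction. Ppargc1a, a coactivator of mitochondrial biogenesis, was at 24.8 ± 3.52 CPM in wild-type and 24.2 ± 2.51 CPM in knock-in, and Cs, citrate synthase, at 164 ± 6.10 and 171 ± 39.2 CPM (SD, n = 3 per group). Esrra, a nuclear receptor of the same programme, was at -0.16 and Esrrb, expressed in strial marginal cells, at 0.22. Of 15 tested genes of the mitochondrial stress response, 12 had negative and 3 positive log2 fold changes, and the median was -0.10. Gdf15, a secreted stress signal, was at -0.50, Trib3 at -0.45 and Lonp1, a matrix protease, at -0.24, and edgeR called 0 of the 15 (0.0338% of all genes) and 0 at an unadjusted p under 0.05 (1.96% of all genes lower, 2.53% higher). Of the genes that maintain mitochondrial DNA, Tymp, which breaks down thymidine, was at 1.19 ± 0.187 CPM in wild-type and 0.712 ± 0.251 CPM in knock-in (SD, n = 3 per group; edgeR adjusted p = 0.966).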

How the data were processed

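The members and lists were chosen with earlier results of these data known. STAR 2.5.2 was used for mapping to GRCm38 with GENCODE release M11, per the submitters' processing notes and the series' design text. The authors deposited unnormalized counts per gene for each library, and a table of their DESeq2 comparison with log2 fold changes and p-values. The counting program, strand setting and treatment of reads with several matches were not stated by any source used here. Overlapping genes such as mt-Nd5 and mt-Nd6 may share reads. A deposited table of transformed values was not used.

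Of 48733 rows of counts, 24 were spike-in and transgene sequences and stayed out of library sizes. Symbols, coordinates and sequences were taken from GENCODE release M21 (GRCm38), where 48349 identifiers matched. The test was run in R 4.3.3 with edgeR 4.0.16 (filterByExpr by group, TMM, two-sided quasi-likelihood F test, default options, group as the only term), with Benjamini-Hochberg values over 20733 genes and a threshold of 0.05. The SE of a log2 fold change is the fold change over the square root of F. Shares, ratios and lists carry no test. The Wilson 95% interval of a library's mitochondrial share was at most 0.018 percentage points to either side; intervals and floors of 3 counts cover counting error only. Replicate numbers follow accession order and pair no samples.

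All 37 genes were accounted for. From each nuclear list, up to 3 genes with the smallest p could be named, plus Tfam, Polrmt, Ppargc1a, Lrpprc, Cox4i1 and Cs. Alternatives were other scalings, including one without mitochondrial genes, other filters, DESeq2 1.42.0, limma-voom (limma 3.58.1), the bias-adjusted quasi-likelihood, and leaving out each library. The test was checked on simulated data with known changes.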

Additional observations from a re-analysis of the deposited data

How the results depend on the processing

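None of the 15 refits called a mitochondrial gene or a gene of the nuclear lists (0 in each), and refits of the nuclear genes, of Hgf and of the ratios other than mt-Rnr2 to mt-Rnr1 and forward to reverse strand were chosen after seeing the data. Over all genes, 7 were called, 28 with DESeq2, 76 with no filter on low counts, and 3 to 21 with 1 library left out (21 without knock-in replicate 1, 3 without knock-in replicate 3 or wild-type replicate 2, 4 without wild-type replicate 1). Hgf was called with DESeq2 (log2 fold change -0.64, adjusted p = 0.014) and with no filter (-0.64, edgeR adjusted p = 0.038). Of 178 refits of 12 mitochondrial genes, 170 kept direction and side of the threshold and 8 turned direction, none past the threshold. mt-Co1 turned with library totals only (-0.0169), without knock-in replicate 3 (-0.042) and without wild-type replicate 1 (-0.050), with a range of -0.050 to 0.12 over single libraries left out. mt-Co3 turned without knock-in replicate 1 (-0.094) and wild-type replicate 1 (-0.12; range to 0.40), mt-Nd5 without knock-in replicate 2 (0.00898) and 3 (0.056; range from -0.62), and mt-Nd6 without knock-in replicate 3 (0.012; range from -0.99). Among nuclear genes, Cs turned without knock-in replicate 1 and 3 (-0.061 at the lowest, to 0.23), Sdhc without knock-in replicate 3 (-0.0092, to 0.21), and Ppargc1a without knock-in replicate 2 and wild-type replicate 2 (0.071 at the highest, from -0.13). Lrpprc, near 0, turned with the stricter filter (0.0020), upper-quartile scaling (0.00857), and without knock-in replicate 2, wild-type replicate 2 and wild-type replicate 3 (0.039 at the highest, from -0.074). The cause was not tested. The mitochondrial share was 2.87 percentage points higher in knock-in, 1.36 to 4.21 with 1 library left out, and -0.0835 with rRNA genes left out of both parts, a share of mRNA and tRNA counts only. The log2 difference was -0.03 to 0.08 for mt-Rnr2 to mt-Rnr1 and 0.15 to 0.74 for forward to reverse strand with 1 library left out. No paired analysis was possible because the litter of each mouse was not stated. Counts of most tRNA genes and of the genes shared with nuclear copies were too few to compare; the part of depth in this was not tested.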
